A study of Mus musculus with 18 samples.

Results

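The genes described here act after a microRNA (miRNA) has found its target. They are Tnrc6a, Tnrc6b, Tnrc6c, Ddx6, Cnot1, Pan2, Pan3, Dcp2, Edc4 and Xrn1, 10 of the 55450 genes in the expression table, taken by symbol for their role in silencing and mRNA decay and not by their values. Poly(A)-selected, stranded mRNA-seq was performed on P19 cells, a mouse embryonic carcinoma line, in 3 lines with 6 samples each. WT cells are Dicer (+/+). HetKO cells are Dicer (+/-), with a frameshift truncation made by CRISPR on 1 allele. HM cells are Dicer (HM/-), made by editing the remaining full-length allele of HetKO cells to the RNase IIIb hotspot mutation E1797G, so HM and HetKO share the truncated allele. With 1 line per genotype, an edit and the history of its line cannot be told apart. Nothing in the labels says that the 6 samples of a line came from separate cultures, so p-values measure the spread between these samples, which may be technical. In bulk RNA, fewer cells with a transcript and less of it per cell cannot be told apart.

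In silencing, an Argonaute protein carrying a miRNA pairs with the 3′ UTR of an mRNA and binds a TNRC6 (GW182) protein. TNRC6 recruits the PAN2-PAN3 and CCR4-NOT deadenylases, which shorten the poly(A) tail. CCR4-NOT in turn binds the helicase DDX6, and the decapping enzyme DCP2, helped by EDC4, removes the cap so that the exonuclease XRN1 can degrade the mRNA from its 5′ end. Dicer acts upstream of all of these, since its RNase IIIb domain makes the cut that frees the 5p strand of a miRNA precursor.

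The mRNAs of these effectors have 3′ UTRs of their own. Mature miRNAs that the study followed in these lines are shown here because their seeds, bases 2 to 8 in capitals, were searched for in those UTRs. They are printed 5′ to 3′ from RefSeq (GRCm38.p6). Among the 5p strands, miR-15b-5p and miR-16-5p share a seed, as do miR-17-5p and miR-20b-5p.
miR-7a-5p: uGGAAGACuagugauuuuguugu
miR-15b-5p: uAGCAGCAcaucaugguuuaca
miR-16-5p: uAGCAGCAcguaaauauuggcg
miR-17-5p: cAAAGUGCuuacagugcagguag
miR-20b-5p: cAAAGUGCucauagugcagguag
miR-26a-5p: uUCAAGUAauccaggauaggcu
Among the passenger 3p strands, miR-17-3p and miR-20b-3p share a seed. The seed of miR-15b-3p was searched too and had no match in any of the 10 UTRs.
miR-7a-1-3p: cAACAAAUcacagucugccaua
miR-17-3p: aCUGCAGUgagggcacuuguag
miR-20b-3p: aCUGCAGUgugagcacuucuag
miR-26a-2-3p: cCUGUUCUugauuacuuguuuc
miR-30a-3p: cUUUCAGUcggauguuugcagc
miR-15b-3p: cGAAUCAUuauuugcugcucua

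All 10 genes were expressed in every sample, in the same leading order in each line. The unit is TPM (transcript abundance scaled to a fixed total), which is per length and allows levels of different genes to be compared. Cnot1, the scaffold of the CCR4-NOT complex, was highest, with a mean of 219 ± 14.2 TPM (SD, n = 6) in WT, above 95.6% of the 14170 genes with at least 1 TPM there. Ddx6 followed at 78.3 ± 3.40 TPM (SD, n = 6). Neither overlapped its neighbour in that order in any line. Below them came Tnrc6a, Dcp2, Edc4 and Tnrc6c, at 41.3, 39.9, 38.8 and 32.7 TPM in WT, whose neighbouring ranges overlapped in all 3 lines. Pan3, Xrn1, Tnrc6b and Pan2 formed the lowest group, at 23.1, 21.2, 20.0 and 19.4 TPM in WT, with overlapping neighbours. Pan2, the lowest in WT, was still above 54.9% of those 14170 genes. In HM, the lowest group was ordered Tnrc6b, Pan3, Xrn1 and Pan2, and the ranges of Pan3 and Xrn1 no longer overlapped.

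Samples within a line were grouped in pairs. By their most abundant genes, WT replicates 1 and 4, 2 and 5, and 3 and 6 were most alike, as were the same numbers in HetKO and replicates 1 and 4, 2 and 3, and 5 and 6 in HM. The robust SD of log2 differences within pairs was at most 0.070 in HetKO and 0.105 in HM. Between other samples it was at least 0.164 and 0.168. Pairs were less clear in WT, at 0.049 to 0.075 within and 0.073 to 0.205 otherwise, since replicates 2, 3, 5 and 6 were all close. For 9 of the 10 genes in HetKO, 7 in HM and 5 in WT, the means of the pairs lay farther apart than any difference within a pair. A fit on the 3 pair means per line is therefore given beside the calls that it ends. HetKO replicates 2 and 5 stood apart from the other HetKO samples. The summed level of 6 mesoderm markers was 195 and 137 TPM in them, mainly from T and Eomes, and 11.3 to 28.1 TPM in the other 4. It was 16.5 to 23.2 TPM in WT and 31.4 to 66.0 TPM in HM, and 3 of the 6 markers averaged at least 1 TPM in each line. In HetKO replicates 2 and 5 the 7 fibroblast or feeder markers summed to 10.18 and 11.03 TPM and the 6 neural markers to 27.4 and 26.6, against 36.1 to 40.1 and 36.5 to 57.3 in the other HetKO samples. In HM replicates 5 and 6 the neural markers summed to 31.8 TPM each, against 39.0 to 58.5 in the other HM samples. The 8 markers of embryonic carcinoma and pluripotent cells summed to 2832 to 3685 TPM over all samples. Most of this was Pou5f1, which averaged 2088 TPM in WT, 2095 in HetKO and 2040 in HM, so the sum hides other members. Sall4 averaged 24.5, 46.7 and 8.85 TPM, Utf1 220, 148 and 381, and Zfp42 1.74, 0.31 and 3.05 in the same order. No marker of any list was at 0 in all samples of a line except the endoderm marker Afp in HetKO. The part of these differences in the results was not tested. Dicer1 itself averaged 52.3 ± 2.09 TPM in WT, 48.0 ± 4.10 in HetKO and 40.3 ± 3.18 in HM (SD, n = 6 each).

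**Figure D1:**
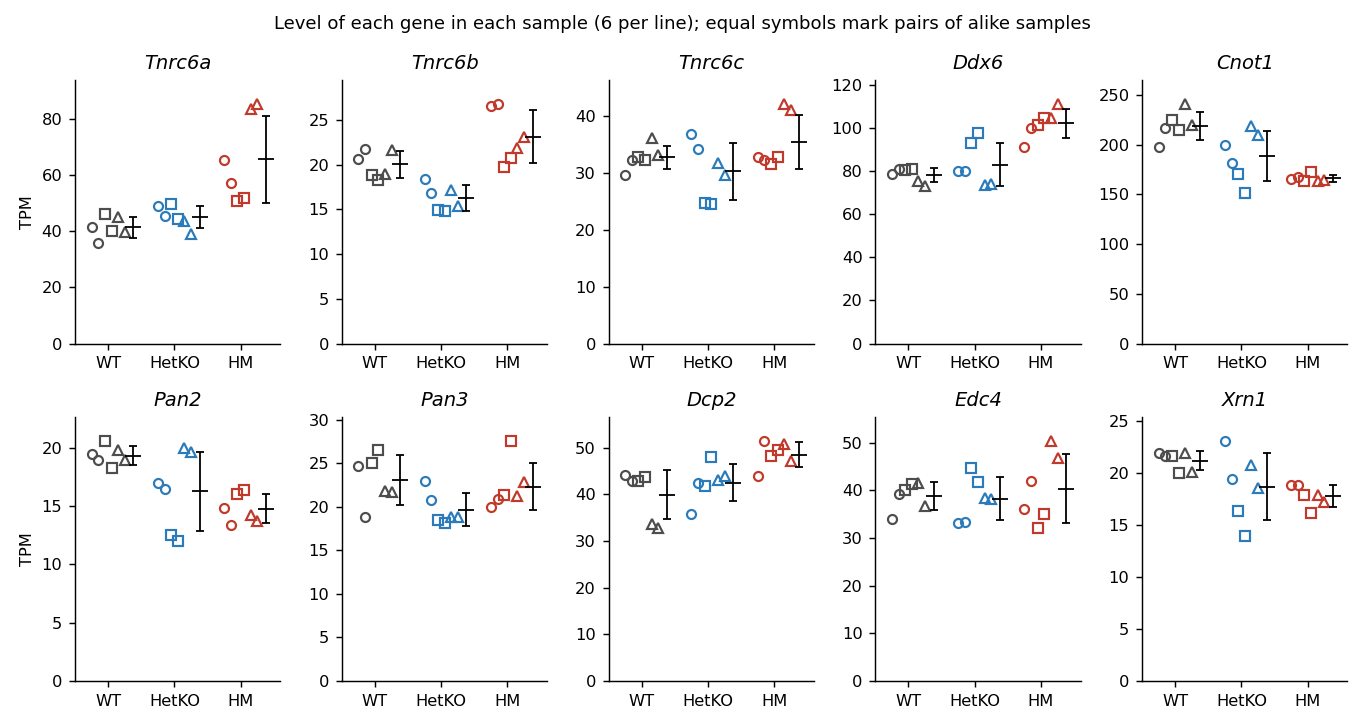
Level of each gene in TPM (vertical axes, each from 0) in the 6 samples of WT, HetKO and HM; equal symbols within a line mark a pair of alike samples, and the black bar is the mean ± SD. Tnrc6a and Ddx6 lie higher in every HM sample than in any WT sample, Cnot1, Pan2 and Xrn1 lower, and HetKO replicates 2 and 5 (squares) hold the lowest HetKO values of Cnot1, Pan2 and Xrn1.

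The comparison of HM with WT asks how the effectors stand in cells whose only full-length Dicer carries the hotspot mutation. Of the 10 genes, 6 passed the test. Tnrc6a, Ddx6 and Dcp2 rose, Cnot1, Pan2 and Xrn1 fell, and Tnrc6b, Tnrc6c, Pan3 and Edc4 did not pass. Differences were tested with limma on log2(TPM + 1), and a gene passed at a Benjamini-Hochberg adjusted p under 0.05 over all 14043 genes tested. Among all these genes, 51.4% passed, 19.4% higher and 32.0% lower in HM, so 6 of 10 is a share near the background. The HM and WT samples did not overlap for 5 of the 10 genes, against 28.5% of all genes. On pair means 4 of the 10 passed (Tnrc6a, Ddx6, Cnot1 and Pan2), against 24.3% of all genes. Of all the calls, 37.7% were higher in HM with TPM as deposited, 61.0% after samples were centred on their median and 51.1% after quantile normalization. The median over all genes was -0.09, and moved to 0.08 with centring.

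The TNRC6 proteins are the scaffolds that join Argonaute to the deadenylases. Tnrc6a, on chromosome 7 from 123123885 to 123195296 (plus strand, GRCm38), was the member with the largest change between HM and WT. Its lowest, median and highest TPM were 35.6, 40.8 and 45.9 in WT and 50.6, 61.0 and 85.3 in HM. Every HM sample was above every WT sample, and HM replicates 5 and 6 were the highest, at 83.5 and 85.3 TPM. The mean rose from 41.3 ± 3.75 to 65.5 ± 15.5 TPM (SD, n = 6 each), a log2 difference of 0.63 ± 0.13 (SE, adjusted p = 0.0017 from limma). On pair means the adjusted p was 0.0425, and without HM replicates 5 and 6 the change was 0.43 (adjusted p = 0.00312 from limma).

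The other TNRC6 genes showed smaller differences. Tnrc6b (chromosome 15, 80711313 to 80941085, plus strand) ranged from 18.3 to 21.7 TPM in WT and from 19.8 to 26.8 in HM, at a log2 difference of 0.19 ± 0.09 (SE, adjusted p = 0.0773 from limma). HM replicates 1 and 4 held its highest values, at 26.6 and 26.8 TPM. After centring or quantile normalization Tnrc6b passed, at 0.37 and 0.32 (adjusted p = 0.00683 and 0.0156 from limma). Tnrc6c (chromosome 11, 117654289 to 117763439, plus strand) ranged from 29.7 to 36.1 TPM in WT and from 31.5 to 42.1 in HM, at a log2 difference of 0.10 ± 0.08 (SE, adjusted p = 0.319 from limma). It passed only with centring (0.28, adjusted p = 0.0185), and without HM replicates 5 and 6 it stood at -0.01.

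Together the 3 TNRC6 genes summed to 94.0 ± 4.06 TPM in WT, 91.6 ± 7.88 in HetKO and 124 ± 20.5 in HM (SD, n = 6 each). The HM sums, from 102 to 149 TPM, lay above those of WT, from 89.6 to 99.9. The share of Tnrc6a in the sum was 43.8 ± 2.59% in WT, 49.3 ± 3.93% in HetKO and 52.3 ± 3.73% in HM. That of Tnrc6c was 34.8 ± 1.5%, 32.9 ± 3.5% and 28.7 ± 2.0% in the same order. Tnrc6b held from 19% to 24.3%, 16.8 to 18.7% and 14.8 to 23.1%. These are descriptions, with no test on the sum.

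**Figure D2:**
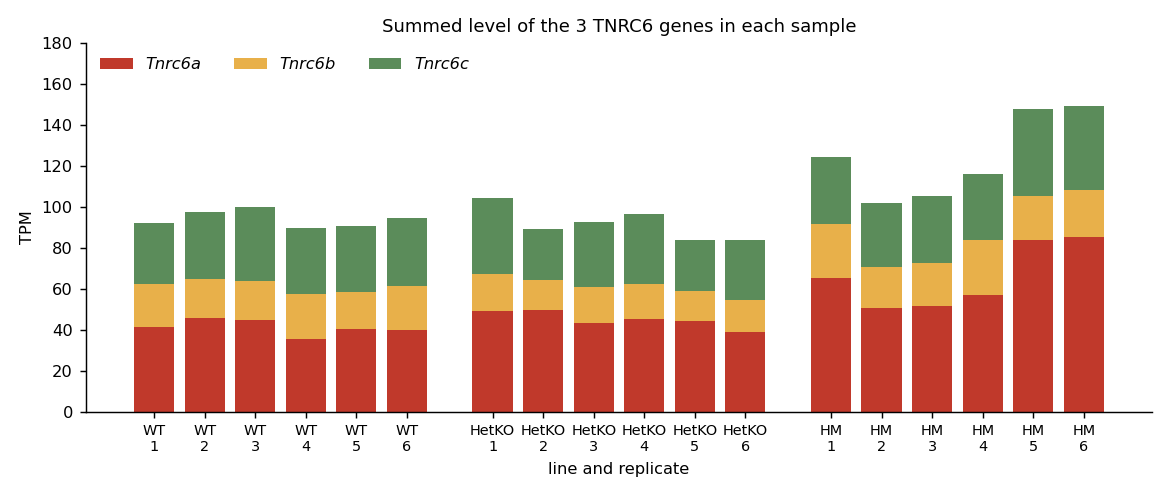
Stacked TPM (vertical axis, from 0) of Tnrc6a, Tnrc6b and Tnrc6c in each sample, by line and replicate (horizontal axis). The WT sums lie between 89.6 and 99.9 TPM and the HM sums between 102 and 149 TPM, and the Tnrc6a segment differs most.

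All 3 TNRC6 mRNAs had a match to the seed of miR-26a-5p in their longest annotated 3′ UTR, each followed by an A. The share of all 21037 annotated 3′ UTRs with this match, TACTTGA, was 9.66%. Among UTRs of similar length it was 14.7% for that of Tnrc6a, 52.1% for Tnrc6b, whose UTR is 11609 bases long, and 16.7% for Tnrc6c. The stretches around these matches are shown because they are shared by the 3 paralogs, with the seed match in capitals (GRCm38, plus strand, position of the match given). The Tnrc6a match lies at chr7:123193101-123193107, the first Tnrc6b match at chr15:80929714-80929720 and the Tnrc6c match at chr11:117761433-117761439.
Tnrc6a: tcagtttgaaTACTTGAatcatgca
Tnrc6b: actcttgaaaTACTTGAatcatgaa
Tnrc6c: aacatgcaaaTACTTGAacccagca
Each of the 3 UTRs also had 1 match, GCACTTT, to the seed shared by miR-17-5p and miR-20b-5p, found in 11.8% of all UTRs, and in 19.1%, 59.6% and 21.0% of those as long as the UTRs of Tnrc6a, Tnrc6b and Tnrc6c. That of Tnrc6a lies at chr7:123193619-123193625.
Tnrc6a: gacgggccctGCACTTTgaacaggc
The same UTRs held 1, 9 and 1 matches to the passenger 3p seeds for Tnrc6a, Tnrc6b and Tnrc6c. A seed match is a string of letters here, and binding was not measured in these data.

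DDX6 is an RNA helicase that binds CCR4-NOT, represses translation and promotes decapping. Ddx6 (chromosome 9, 44604892 to 44640731, plus strand) had a lowest, median and highest level of 73.0, 79.7 and 81.2 TPM in WT and of 91.2, 103 and 111 TPM in HM. The lines did not overlap. The mean rose from 78.3 ± 3.40 to 102 ± 6.70 TPM (SD, n = 6 each), by 0.38 on the log2 scale (SE 0.05, adjusted p = 0.000107 from limma). It passed without any single sample and without any alike pair.

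Cnot1 moved the other way. The gene (chromosome 8, 95719451 to 95807464, minus strand) encodes the subunit on which the rest of CCR4-NOT assembles. Its lowest, median and highest levels were 198, 218 and 241 TPM in WT and 164, 165 and 173 TPM in HM. The HM samples were close to each other and all below WT. The mean fell from 219 ± 14.2 to 166 ± 3.54 TPM (SD, n = 6 each), a log2 difference of -0.39 ± 0.05 (SE, adjusted p = 3.41e-05 from limma, 0.0160 on pair means). The ratio of Ddx6 to Cnot1 TPM was 0.359 ± 0.032 in WT, 0.454 ± 0.120 in HetKO and 0.615 ± 0.042 in HM. Its range was 0.313 to 0.398 in WT and 0.551 to 0.676 in HM, and that of HetKO, 0.336 to 0.645, overlapped both. Within 5 Mb of Cnot1, the median of the other 54 tested genes was -0.24 and 25.9% of them were higher in HM. That median was lower than the median of all genes. So were those around Pan2 (-0.20), which also fell in HM, and around Tnrc6b (-0.16) and Tnrc6c (-0.15), which did not. Around Tnrc6a, Ddx6, Dcp2 and Xrn1 the medians were -0.07, -0.09, -0.08 and -0.06, and around Pan3 and Edc4 -0.04 and -0.03. A part of the neighbourhood in these changes was not tested.

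PAN2 is the catalytic subunit of the deadenylase that trims long poly(A) tails, and PAN3 is the subunit that holds it to TNRC6 and the poly(A)-binding protein. Pan2 (chromosome 10, 128303335 to 128321358, plus strand) ranged from 18.3 through a median of 19.2 to 20.6 TPM in WT and from 13.4 through 14.6 to 16.4 TPM in HM. The lines did not overlap. Its mean fell from 19.4 ± 0.80 to 14.8 ± 1.24 TPM (SD, n = 6 each), a log2 difference of -0.37 ± 0.06 (SE, adjusted p = 0.000503 from limma, 0.0454 on pair means). The 80 tested genes within 5 Mb had a median of -0.20. Pan3 (chromosome 5, 147430161 to 147548502, plus strand) had overlapping values of 18.8 to 26.5 TPM in WT and 20.0 to 27.6 TPM in HM, at a log2 difference of -0.05 ± 0.09 (SE, adjusted p = 0.711 from limma), which was 0.13 after centring and 0.08 after quantile normalization. The Pan3 to Pan2 ratio was 1.19 ± 0.16 in WT, 1.25 ± 0.25 in HetKO and 1.51 ± 0.15 in HM (SD, n = 6 each).

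Cnot1 and Pan2 have short 3′ UTRs, of 956 and 588 bases, and both held a match to the miR-7a-5p seed, GTCTTCC. This match was found in 11.9% of all UTRs, and in 9.07% and 5.90% of those as long as that of Cnot1 and that of Pan2. They were the only members with it, and neither had a match to the passenger 3p seeds searched. The sites are shown because both genes fell in HM. Xrn1, which also fell, had no match to the miR-7a-5p seed and 3 to that of miR-7a-1-3p. The Cnot1 match lies at chr8:95720047-95720053 (minus strand) and that of Pan2 at chr10:128321253-128321259 (plus strand), where an A follows it.
Cnot1: atagcagcatGTCTTCCgacatcca
Pan2: agaagtatctGTCTTCCatacattc
A second match in Cnot1, to the seed of miR-15b-5p and miR-16-5p, lies at chr8:95719766-95719772 (minus strand).
Cnot1: ctactacagcTGCTGCTttttataa

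The decapping genes differed from each other. Dcp2, the catalytic subunit, on chromosome 18 from 44380502 to 44424969 (plus strand), had a lowest, median and highest level of 32.7, 42.8 and 44.0 TPM in WT and of 43.8, 48.9 and 51.4 TPM in HM. Only the lowest HM sample was below the highest WT sample, and WT replicates 3 and 6 were the lowest of WT, at 33.6 and 32.7 TPM. The mean rose from 39.9 ± 5.28 to 48.5 ± 2.74 TPM (SD, n = 6 each), by 0.28 on the log2 scale (SE 0.08, adjusted p = 0.0136 from limma). It did not pass on pair means (adjusted p = 0.127), or without WT replicates 3 and 6 (0.16, adjusted p = 0.055). Edc4 (chromosome 8, 105880881 to 105894908, plus strand), a scaffold that activates DCP2, had 34.0 to 41.6 TPM in WT and 32.0 to 50.3 TPM in HM, at a log2 difference of 0.04 ± 0.11 (SE, adjusted p = 0.781 from limma). HM replicates 5 and 6 were its highest samples, at 50.3 and 46.8 TPM, and without them the value was -0.10. Its 3′ UTR of 363 bases was the only UTR of the 10 with no match to any seed searched.

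XRN1 degrades decapped mRNA from the 5′ end. Xrn1 (chromosome 9, 95954760 to 96057803, plus strand) had a lowest, median and highest level of 20.0, 21.7 and 22.0 TPM in WT and of 16.1, 17.9 and 18.9 TPM in HM, without overlap. The mean fell from 21.2 ± 0.90 to 17.8 ± 1.03 TPM (SD, n = 6 each), a log2 difference of -0.24 ± 0.06 (SE, adjusted p = 0.00363 from limma). It did not pass on pair means (adjusted p = 0.11), after centring (-0.06, adjusted p = 0.444) or after quantile normalization (-0.10, adjusted p = 0.222). The Xrn1 UTR held 3 matches to the 5p seeds and 3 to that of miR-7a-1-3p.

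**Figure D3:**
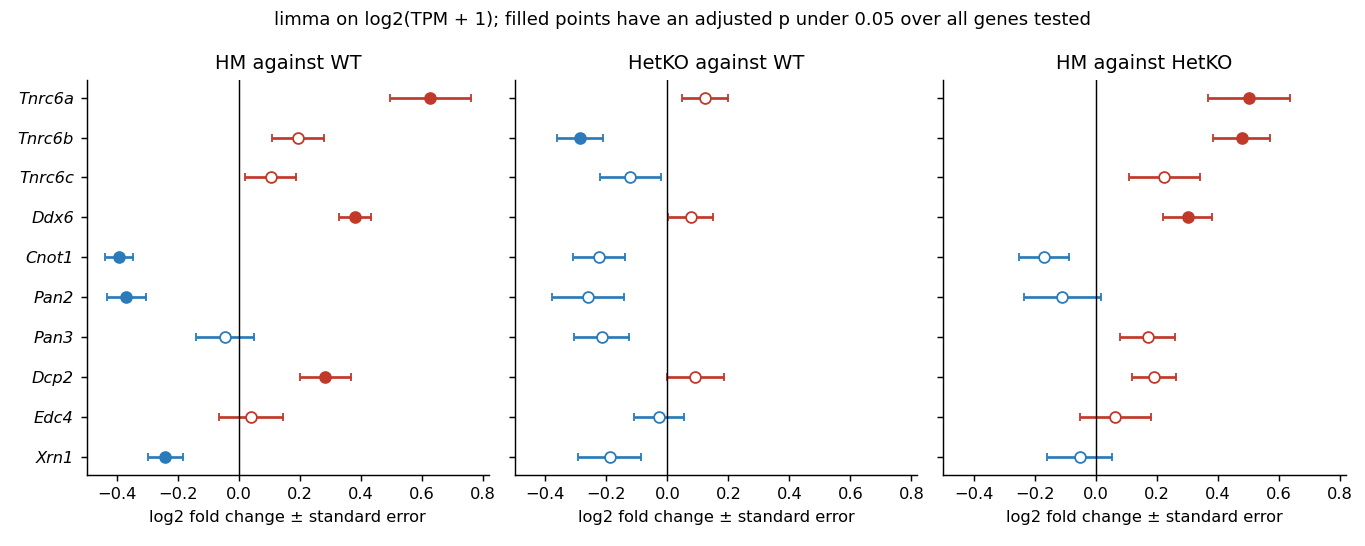
The log2 fold change of each gene (horizontal axes, ± standard error) in 3 comparisons, each fitted with limma on its own 12 samples; filled points passed at an adjusted p under 0.05. Between HM and WT 6 points are filled on both sides of 0, between HetKO and WT only that of Tnrc6b, and between HM and HetKO those of Tnrc6a, Tnrc6b and Ddx6.

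Relative to the median of all genes, Tnrc6a stood at 0.72, Ddx6 at 0.47, Dcp2 at 0.38, Xrn1 at -0.15, Pan2 at -0.28 and Cnot1 at -0.30 on the log2 scale between HM and WT. The direction of these 6 was the same under every alternative run. Over the settings that kept all samples, the change ranged from 0.63 to 0.81 for Tnrc6a, from 0.35 to 0.56 for Ddx6 and from 0.28 to 0.46 for Dcp2. It ranged from -0.50 to -0.22 for Cnot1, from -0.39 to -0.19 for Pan2 and from -0.25 to -0.06 for Xrn1. With a limit of at least 1.5-fold, Tnrc6a alone of the 10 passed, against 21.4% of all genes.

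**Figure D4:**
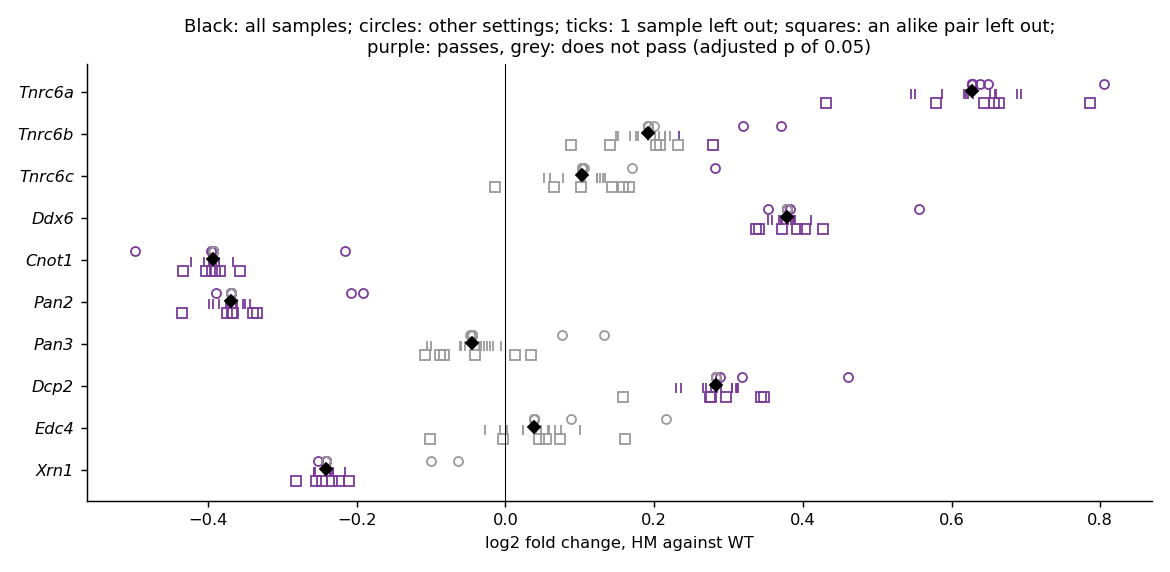
The log2 fold change between HM and WT (horizontal axis) of each gene with all samples (black), under other settings (circles), without each sample in turn (ticks) and without each alike pair (squares); purple passed and grey did not. Tnrc6a stays above 0.43, Ddx6 and Cnot1 keep to their sides of 0, and Pan3 and Edc4 lie on both sides of it.

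The comparison of HetKO with WT asks what the loss of a Dicer allele goes with on its own. Tnrc6b fell, and the other 9 genes did not pass, with 10.2% of 13999 genes passing, 3.71% higher and 6.44% lower in HetKO. For none of the 10 were the HetKO and WT samples without overlap, against 8.21% of all genes, and none passed with a 1.5-fold limit, against 4.76%. Tnrc6b had a lowest, median and highest level of 14.8, 16.1 and 18.4 TPM in HetKO and of 18.3, 19.8 and 21.7 TPM in WT. The ranges touched only through HetKO replicate 1, at 18.4 TPM, and WT replicate 5, at 18.3. The mean fell from 20.0 ± 1.53 to 16.3 ± 1.46 TPM (SD, n = 6 each), a log2 difference of -0.29 ± 0.07 (SE, adjusted p = 0.0306 from limma). This call was not stable. On pair means its adjusted p was 0.474, and it rose above the threshold after centring (0.0707), after quantile normalization (0.0597) and without any of HetKO replicates 2, 5 or 6 or WT replicates 1, 4 or 6, with adjusted p-values of 0.0513 to 0.0681 from limma.

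Of the other genes, Cnot1 averaged 189 ± 25.5 TPM in HetKO, Pan2 16.3 ± 3.41, Pan3 19.7 ± 1.89 and Xrn1 18.7 ± 3.24 (SD, n = 6 each). Their log2 fold changes against WT were -0.22, -0.26, -0.22 and -0.19, with adjusted p-values of 0.109, 0.173, 0.14 and 0.245 from limma. These values were spread unevenly over the samples. HetKO replicates 2 and 5, which held the high mesoderm marker levels, had 170 and 151 TPM of Cnot1 against 182 to 218 in the other 4. For Pan2 they had 12.5 and 12.0 TPM against 16.5 to 20.0, and for Xrn1 16.3 and 14.0 TPM against 18.6 to 23.1. Ddx6 was highest in them, at 93.0 and 97.7 TPM, against 73.5 to 80.3 in the rest, and Tnrc6c lowest, at 24.6 and 24.5 TPM against 29.6 to 36.9. Without these replicates Cnot1 stood at -0.11, Pan2 at -0.08, Xrn1 at -0.05, Ddx6 at -0.03 and Tnrc6c at 0.01 against WT, and Tnrc6b at -0.23 (adjusted p = 0.0888 from limma). Tnrc6a averaged 45.0 ± 3.87 TPM in HetKO, Ddx6 83.1 ± 10.1, Dcp2 42.4 ± 3.97, Edc4 38.2 ± 4.54 and Tnrc6c 30.3 ± 5.03, and none of these passed against WT.

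The comparison of HM with HetKO holds the truncated allele constant. It shares its samples with both other comparisons and is not independent of them. Tnrc6a, Tnrc6b and Ddx6 rose and the other 7 genes did not pass, with 34.6% of 13762 genes passing, 14.0% higher and 20.6% lower in HM. Tnrc6a reached 39.0 to 49.5 TPM in HetKO and 50.6 to 85.3 in HM, without overlap, a log2 difference of 0.50 ± 0.13 (SE, adjusted p = 0.0123 from limma). Tnrc6b reached 14.8 to 18.4 TPM in HetKO and 19.8 to 26.8 in HM, again without overlap, at 0.48 (SE 0.09, adjusted p = 0.0023 from limma). Those were the 2 members without overlap, against 15.5% of all genes, and none passed with a 1.5-fold limit, against 15.3%. Ddx6 overlapped, since HetKO replicates 2 and 5 reached into the HM range of 91.2 to 111 TPM, and its change was 0.30 (SE 0.08, adjusted p = 0.0122 from limma). On pair means none of the 10 passed with limma, 3 having an unadjusted p under 0.05, against 3.30% of all genes passing. Without HetKO replicates 2 and 5, 6 of the 10 passed, Cnot1 (-0.28, adjusted p = 0.00219), Pan2 (-0.29, adjusted p = 0.0205) and Dcp2 being added. The share of all genes passing in that fit is not given here, so the count is not read as a result about the 10 genes. Ddx6 did not pass without HM replicates 5 and 6 (0.26, adjusted p = 0.0668 from limma), HetKO 1 and 4 (0.28, adjusted p = 0.056) or HetKO 3 and 6 (0.22, adjusted p = 0.0693). Tnrc6a did not pass without HetKO 3 and 6 (0.44, adjusted p = 0.0669 from limma), and stood at 0.31 without HM 5 and 6 (adjusted p = 0.0396 from limma). Tnrc6b passed without each of the 6 pairs.

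Around the 10 genes, lists of silencing and decay factors held 80 genes, of which 77 were tested, the 10 included. Between HM and WT, 23 of the 77 (29.9%) were higher and 16 (20.8%) lower, against 19.4% and 32.0% of all genes, with a median log2 fold change of 0.02 against -0.09. Without the 10 genes, 20 of 67 were higher and 13 lower. Argonautes, the proteins that TNRC6 binds, had 3 members tested, of which 0 passed with limma, 0 with the unequal-variance test and 0 at an unadjusted p under 0.05. Of the 11 CCR4-NOT genes, 5 were higher and 2 lower. The deadenylase subunit Cnot6 rose from 56.5 ± 4.96 to 84.5 ± 8.09 TPM (log2 fold change 0.57, adjusted p = 7.00e-05 from limma), and its paralog Cnot6l fell from 9.18 ± 1.14 to 7.46 ± 0.94 TPM (-0.27, adjusted p = 0.0423 from limma, 0.219 on pair means), with overlapping samples.

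The decapping list, which includes Ddx6, Dcp2 and Edc4, had 7 of 16 genes higher and 2 lower, with a median of 0.19. Lsm3, a subunit of the LSM ring that binds the 3′ end of deadenylated mRNA, rose from 304 ± 7.74 to 443 ± 30.9 TPM (0.54, adjusted p = 6.43e-06 from limma). Dcp1b, a cofactor of DCP2, fell from 12.1 ± 1.57 to 5.28 ± 1.56 TPM (-1.10, adjusted p = 0.000144 from limma). Among PAN2-PAN3 and poly(A)-binding factors 1 of 6 was higher and 1 lower, the first being Paip1, which binds poly(A)-binding protein, at 45.5 ± 2.98 against 32.2 ± 6.13 TPM (0.50, adjusted p = 0.00157 from limma). Of 5 BTG/TOB adaptors 1 was higher and 1 lower. Btg3 rose from 57.6 ± 6.27 to 104 ± 9.38 TPM (0.84, adjusted p = 8.89e-06 from limma) and Btg1 fell from 15.7 ± 1.97 to 11.6 ± 3.51 TPM (-0.45, adjusted p = 0.0376 from limma, 0.164 on pair means), with overlapping samples.

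The list of translational repressors held 6 genes, among them the cap-binding initiation factor Eif4e, which is not a repressor. Of the 6, 2 were higher and 2 lower. Eif4e was 1 of the higher genes (0.34, adjusted p = 0.00067 from limma). Eif4e2, a cap-binding protein that represses translation, rose by 0.56 (adjusted p = 0.00117 from limma), and Eif4a2, a helicase of the translation initiation machinery, fell from 467 ± 50.0 to 348 ± 34.2 TPM (-0.43, adjusted p = 0.000719 from limma). The list of the 5′-3′ exonuclease and the scavenger held Xrn1 and the scavenger decapping enzyme Dcps, which are not 1 step of decay. Both were lower, Dcps at -0.20 (adjusted p = 0.01 from limma). On pair means 0 of these 2 passed with limma (adjusted p = 0.11 for Xrn1 and 0.119 for Dcps), both having an unadjusted p under 0.05. Between HetKO and WT 5 of the 77 passed, Lsm5 (1.30%) being higher and Ago2, Ago3, Tnrc6b and Pabpc4 (5.19%) lower, against 3.71% and 6.44% of all genes. Ago3 stood at -0.40 (adjusted p = 0.0442), Ago2 at -0.20 (adjusted p = 0.0464), Pabpc4 at -0.21 (adjusted p = 0.046) and Lsm5 at 0.24 (adjusted p = 0.046), all from limma. On pair means 0 of the 77 passed with limma, and 4 had an unadjusted p under 0.05. Ago2 is named here although the naming rule took only the most changed gene of each list. Between HM and HetKO 17 of the 77 (22.1%) were higher and 12 (15.6%) lower, against 14.0% and 20.6% of all genes. On pair means 2 of these genes passed, against 3.30% of all genes.

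**Figure D5:**
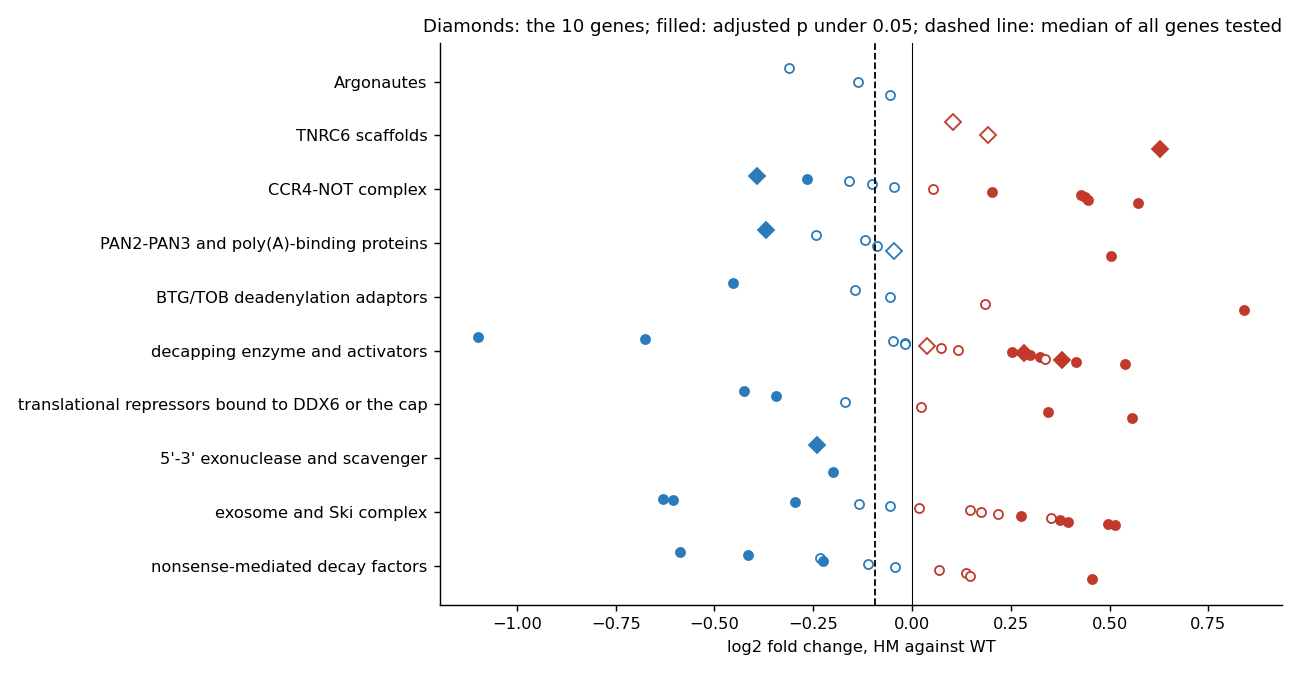
The log2 fold change between HM and WT (horizontal axis) of each tested gene in lists of silencing and decay factors (rows); diamonds are the 10 genes, filled symbols passed at an adjusted p under 0.05 and the dashed line is the median of all genes, -0.09. Most rows, such as the CCR4-NOT complex with 5 genes higher and 2 lower, hold filled symbols on both sides of 0.

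Over the 10 UTRs, 22 matches to the 4 seeds of 5p strands and 24 to the 5 seeds of passenger 3p strands were found in total. At least 1 match to a 5p seed was present in 9 genes and to a 3p seed in 7. The share of annotated UTRs with a match to any of these seeds was not computed, so these counts are not read as a trait of the genes. Single seeds matched in 7.61% to 20.3% of all UTRs and in 48.9% to 76.6% of those as long as that of Tnrc6b. Genes that rose and genes that fell both had 5p matches. Of matches to 3p seeds, Tnrc6b held 9, and Pan3, Dcp2 and Xrn1 held 3 each. Ddx6 held 1 match to a 5p seed and 4 to 3p seeds. Its match to the miR-30a-3p seed, at chr9:44636643-44636649 (plus strand) and followed by an A, is shown because Ddx6 rose in HM.
Ddx6, miR-30a-3p match: gtgaagaaaaACTGAAAagaagaca
In UTRs as long as that of Ddx6, these letters were found in 40.0%.
Xrn1 is shown because a pair of matches to the miR-17-5p seed lie close together in its UTR, at chr9:96052936-96052942 and chr9:96052974-96052980 (plus strand).
Xrn1, first match: aagttaccagGCACTTTtcatgcta
Xrn1, second match: atcaaattgtGCACTTTaaatatgt
Of UTRs of similar length, 35.7% held at least 1 such match, and the share with a close pair of them was not computed.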

How the data were processed

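mRNA-seq of 18 P19 samples was analysed. Read pairs were merged (BBMerge) and RSEM was run by the authors, who deposited TPM with 2 decimals for 55450 genes. The submitters' processing notes also name cutadapt, STAR and mm10, and versions and the annotation are not given in the sources used here. TPM keeps no depth, so the reads behind a value are unknown and precision was taken from the spread between samples. Each sample's line was taken from its genotype label.

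In each comparison, limma 3.58.1 (R 4.3.3) was fitted to log2(TPM + 1) of the genes averaging 1 TPM or more in its 12 samples, two-sided, with a variance trend and Benjamini-Hochberg adjustment. Fold changes on this scale understate those of low genes. The procedure was tested on simulated data with independent samples. That test held no pairs of alike samples, so it cannot give the error rate with the pairs seen here. Other steps used Python 3.11.15, pandas 2.3.3, numpy 2.4.6 and matplotlib 3.10.9. Positions and 3′ UTRs came from GENCODE M21 (GRCm38), which matched all 55450 identifiers. Seeds were taken from RefSeq, and the reverse complement of bases 2 to 8 was searched on the transcript strand of the longest UTR.

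The genes and lists were chosen with earlier results of these data known. Named besides the 10 genes were Dicer1, in each list the gene with the largest rise and the largest fall among those that passed in HM or in HetKO against WT, and the tested gene closest to each of the 10. Ago2, Eif4e and Dis3l2 are named outside this rule. Alternatives were another pseudocount, other filters, centring, quantile normalization, 1 fit of all lines, a replicate block, pair means, an unequal-variance test, a 1.5-fold limit and samples left out; leaving out alike pairs, except HetKO 2 and 5 and HM 2 and 3, was added after the values were seen. The small RNA, AGO2 and CLASH libraries were not analysed here.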

Additional observations from a re-analysis of the deposited data

How the results depend on the processing

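TPM holds no depth, so what depth limits could not be computed. Between HM and WT the count of the 10 genes was 6, and 1 with a 1.5-fold limit; without single samples it was 6 to 7. Between HetKO and WT it was 1, and 0 after centring, after quantile normalization, on pair means, with the 1.5-fold limit and without WT replicates 1 and 4, WT 3 and 6 or HetKO 2 and 5, but 3 without HetKO 3 and 6 (Tnrc6b, Cnot1 and Pan2); without single samples it was 0 to 1. Between HM and HetKO it was 3, and 6 after centring, 5 after quantile normalization, 0 on pair means, 0 with the 1.5-fold limit, 6 without HetKO 2 and 5 and 1 without HetKO 3 and 6; without single samples it was 3 to 5. At the counts of 0 on pair means, limma gave an unadjusted p under 0.05 for 1 gene (HetKO and WT) and 3 (HM and HetKO), and the unequal-variance test on 6 samples called 1 and 3. The count of 39 listed genes between HM and WT was 22 on pair means and 7 with the 1.5-fold limit, and 36 to 44 without single samples. The count of 5 between HetKO and WT was 2 without a filter, 2 after centring, 2 with the unequal-variance test, 0 on pair means, 0 with the 1.5-fold limit, 3 without WT 1 and 4, 2 without WT 2 and 5, 0 without WT 3 and 6, 3 without HetKO 2 and 5 and 14 without HetKO 3 and 6, and 0 to 5 without single samples. The count of 29 between HM and HetKO was 2 on pair means, 5 with the 1.5-fold limit, 19 without HM 5 and 6, 14 without HetKO 3 and 6, and 21 to 32 without single samples. Over all genes, the calls between HM and HetKO were 4765, 4861 after centring and 4781 after quantile normalization. Those between HetKO and WT were 1421, 1516 and 1515 in the same order. For fits with samples left out, the count over all genes is not given here, so their counts are not read as results about the listed genes or the 10. The 1.5-fold limit and pair means lower counts by their own construction. The cause of the other moves was not tested. With an A required after the match, 46 seed matches became 16.

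Values that changed sign, none of which passed, were these on the log2 scale. Between HM and WT, Pan3 was at 0.13 after centring, 0.076 after quantile normalization, 0.035 without WT 2 and 5 and 0.012 without HM 1 and 4. Edc4 was at -0.0037 without WT 1 and 4, at -0.10 without HM 5 and 6 and at -0.028 to 0.10 without single samples, and Tnrc6c at -0.014 without HM 5 and 6. Between HetKO and WT, Edc4 was at 0.028 after centring, 0.0088 without WT 2 and 5, 0.067 without HetKO 1 and 4 and -0.072 to 0.012 without single samples. Dcp2 was at -0.034 without WT 3 and 6, and Tnrc6c at 0.015 and Ddx6 at -0.026 without HetKO 2 and 5. Between HM and HetKO, Pan2 was at 0.0070 after centring and 0.038 without HetKO 3 and 6. Xrn1 was at 0.064 after centring, 0.043 after quantile normalization, 0.043 without HetKO 1 and 4 and -0.13 to 0.0097 without single samples. Edc4 was at -0.075 without HM 5 and 6, -0.029 without HetKO 1 and 4 and -0.0013 to 0.13 without single samples.

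Replicate numbers run from 1 to 6 in each line, and nothing says that equal numbers were handled together. Deviations of equal numbers correlated at -0.074 to 0.109 between HM and WT, 0.025 to 0.116 between HetKO and WT and -0.167 to 0.169 between HM and HetKO, and 1, 3 and 1 of 6 samples were closest to their own number, so the numbers were not taken as pairs. Blocking on the replicate number left 3 of the listed genes called between HetKO and WT in place of 5, and Tnrc6b passed between HM and WT (0.19, adjusted p = 0.0455 from limma).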

Other observations

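Decay routes beyond the miRNA pathway were read from the same fit between HM and WT. The list of the exosome, which degrades RNA from the 3′ end, and its Ski cofactors had 15 tested genes. Of these, 5 were higher and 3 lower, with a median log2 fold change of 0.18. Among the lower genes of this list was Dis3l2, an exonuclease that acts apart from the exosome (-0.60, adjusted p = 0.00734 from limma, 0.0788 on pair means). Exosc1, an exosome subunit, averaged 66.7 ± 18.4 TPM in HM and 45.4 ± 6.01 in WT (SD, n = 6 each; 0.51, adjusted p = 0.0143 from limma, 0.109 on pair means). Dis3l, a catalytic exosome subunit, averaged 5.78 ± 1.21 TPM in HM and 9.38 ± 1.14 in WT (-0.63, adjusted p = 0.00168 from limma). Of 10 factors of nonsense-mediated decay, 1 was higher and 3 lower, with a median of -0.08. Smg8, a regulator of the kinase SMG1, rose from 28.0 ± 1.82 to 38.9 ± 5.54 TPM (0.46, adjusted p = 0.000944 from limma), and Upf3b, an adaptor that links exon junctions to decay, fell from 51.2 ± 1.30 to 33.8 ± 1.94 TPM (-0.59, adjusted p = 4.51e-06 from limma).

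Likeness across the 18 samples was described by the distance between centred log2(TPM + 1) values over 13434 genes. The gene closest to Ddx6 was Ube2d3 (distance 0.222), to Cnot1 Chtf18 (0.31), to Pan2 Lgmn (0.294), to Tnrc6b Heatr5a (0.34), to Tnrc6c Atf7ip2 (0.301) and to Xrn1 Apc (0.34). Tnrc6a was closest to Tnfrsf21 (0.516), Pan3 to Srbd1 (0.488), Dcp2 to Psma6 (0.479) and Edc4 to Mtss1l (0.398). Among the 10 genes themselves, Cnot1 and Pan2 were each closest to the other (0.423), as were Ddx6 and Dcp2 (0.58). The points share the lines and the pairs of alike samples.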
